A study of Mus musculus with 12 samples.

Results

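Stage 0 invariant natural killer T (iNKT) cells of the mouse thymus were compared between mice labelled Bcl6KO and wild type (WT), by RNA sequencing. The comparison was taken from the sample titles and holds 6 of the 12 RNA libraries of the study, 3 per genotype. All mice were C57Bl/6J and 4 to 5 weeks old, were not treated, and the thymi of 4 to 7 mice were pooled. Bcl6KO mice are given as CDCre;Bcl6F/F, a Cre transgene with floxed Bcl6 alleles. The promoter behind that abbreviation and the deleted exons are not stated in the sources used here, nor whether the WT mice carried Cre. Stage 0 cells were sorted as binding the tetramer, positive for TCRb and CD24 and negative for CD44. The remaining 6 libraries are stage 1 cells of both genotypes, sorted in the same way but negative for CD24, and serve below as another comparison of the genotypes. Nothing in the labels says whether libraries of the same group were made from different pools of mice. The p-values therefore rest on the spread among the deposited samples, which may be technical in part.

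iNKT cells carry a semi-invariant T cell receptor that recognises lipids on CD1d. They branch off from CD4 and CD8 double-positive thymocytes, pass a short stage 0 after selection, and switch on PLZF. That factor, encoded by Zbtb16, is the regulator of their innate-like program. BCL6 is a zinc-finger repressor that recruits corepressor complexes. It is best known from germinal centre B cells and follicular helper T (Tfh) cells, where it holds down genes of cell cycle arrest, migration and alternative fates, and it also represses its own gene.

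The 6 libraries held 4213431 to 8038717 counts. The WT totals were 5190157, 4213431 and 5019653 counts for replicates 1, 2 and 3, and the Bcl6KO totals were 5558250, 8038717 and 6800328; values below follow the same order of replicates. Despite the larger totals, fewer genes had at least 1 count in the Bcl6KO libraries, 17734, 14860 and 16267, than in WT, 18417, 21607 and 19285. After thinning to 4129919 counts each, the smallest total of the 12 libraries, 17162, 14603 and 15894 genes were left in Bcl6KO and 17915, 21549 and 18831 in WT, so the groups did not overlap at equal totals, which include the counts of Sp100 given next. A single gene, Sp100, which encodes a nuclear body protein, took 10.8%, 23.9% and 17.9% of all counts in Bcl6KO and 5.03%, 0.029% and 4.91% in WT. Each of these group differences had an exact two-sided permutation p of 0.1, the smallest that 3 against 3 libraries can give. Within groups, Pearson correlations of log2 CPM across genes were 0.724 to 0.778 in WT and 0.574 to 0.665 in Bcl6KO. The part of this spread, of the Sp100 share and of the genes detected in the results below was not tested, apart from the alternative fits that are named.

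**Figure D1:**
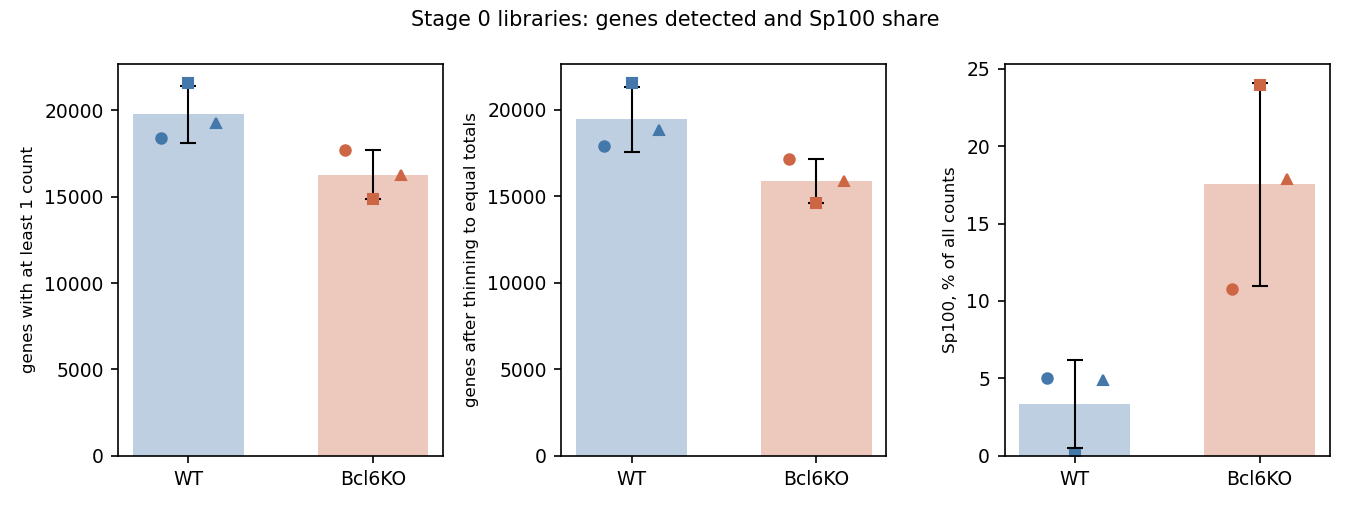
Genes with at least 1 count, the same after thinning every library to 4129919 counts, and the share of counts taken by Sp100, for the 3 WT and 3 Bcl6KO stage 0 libraries. Bars are means, error bars the SD and symbols the replicates; the Bcl6KO libraries hold fewer genes and a larger Sp100 share than every WT library.

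The sort was checked on its defining genes. Message for the T cell receptor alpha constant region, Trac, stood at 644, 431 and 402 CPM in the WT libraries and 712, 682 and 698 CPM in the Bcl6KO libraries (CPM, counts scaled to the TMM-adjusted library size). The Valpha14 segment Trav11 of the iNKT receptor was present in all 6 libraries, at 397, 305 and 216 CPM in WT and 368, 230.2 and 307 CPM in Bcl6KO. Its partner segment Traj18 was near the floor, at 3.16, 3.33 and 1.57 CPM in WT and 0.596, 1.13 and 1.76 CPM in Bcl6KO, and the groups overlapped. Cd24a, the gene of the surface marker that defines stage 0, stood at 179, 148 and 170.2 CPM in WT and 311, 259.8 and 153 CPM in Bcl6KO and the groups overlapped. Cd44, whose protein the gate excluded, was at most 7.84 CPM in any of the 6. WT replicate 2 held messages of gamma-delta T cells that the other WT libraries nearly lacked. Sox13, a regulator of those cells, stood at 0, 56.8 and 0 CPM in WT and 0, 0.566 and 0 CPM in Bcl6KO, and their scavenger receptor gene Cd163l1 at 0, 36.4 and 0.392 CPM in WT and 0, 0 and 0 CPM in Bcl6KO. The 5 tested gamma-delta T cell markers summed to 2.37, 198 and 3.33 CPM in WT and 44.3, 1.70 and 74.3 CPM in Bcl6KO, and the high values among Bcl6KO came from the receptor constant gene Trdc. The summed markers of B cells and of macrophages and dendritic cells overlapped between the groups. The 13 B cell markers, 8 of them tested, summed to 118, 98 and 32.5 CPM in WT and 202, 181 and 61.9 CPM in Bcl6KO. The 16 macrophage and dendritic cell markers, 8 of them tested, summed to 29.6 to 132 CPM in WT and 55.5 to 66.1 CPM in Bcl6KO. The B cell gene Ms4a1, the macrophage gene C1qa and the natural killer cell gene Ncr1 did not pass the filter on low counts, and Ncr1 had no count in any of the 6. The 12 natural killer and innate lymphoid markers summed to 61.7, 60.9 and 46.2 CPM in WT and 18.9, 52.6 and 15.9 CPM in Bcl6KO. Of these, 7 were tested, with 6 negative fold changes and a median log2 fold change of -3.33. No Bcl6KO library held a count of 3 of the 7. The median was -2.82 with genes at 0 in a whole group set to their bound against 3 counts, and -1.10 with genes detected as a covariate. It ran from -4.68 to 1.14 over the 18 alternatives and kept its sign in 17. The 15 thymic epithelial and stromal markers summed to 406, 243 and 332 CPM in WT and 436, 1678 and 279 CPM in Bcl6KO. Bcl6KO replicate 2 was far above the rest, and the median of the 6 tested markers was 0.39 (-0.36 to 1.10 over the alternatives). Both sums overlapped between the groups. The part of these cells in the results was not tested.

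Bcl6 itself was not lower in the libraries labelled Bcl6KO. Its whole-gene level was 371, 215 and 274 CPM in WT and 508, 654 and 649 CPM in Bcl6KO. All 3 Bcl6KO libraries lay above all 3 WT libraries, with a log2 fold change of 1.07 (SE 0.44) that did not pass the test (edgeR quasi-likelihood, adjusted p = 0.285). At stage 1 the log2 fold change was 2.15. The counts cover the whole gene and do not separate exons, so they check neither the deletion nor the labels. The gene lies at chr16:23965052-23988852 on the minus strand (mm10).

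Of 15704 genes tested, 3 rose in Bcl6KO and none fell, at a Benjamini-Hochberg adjusted p below 0.05 over all genes, which is 0.0191% of the genes tested. At an unadjusted p below 0.05, 931 genes were higher (5.93%) and 1378 lower (8.77%). The 3 were Ccnd2, which encodes the cell cycle driver cyclin D2, Camk1d, a calcium/calmodulin-dependent protein kinase, and Igfbp4, a secreted protein that binds insulin-like growth factors. In all 3 genes the lowest Bcl6KO library lay above the highest WT library.

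Ccnd2 stood at 701, 693 and 756 CPM in WT and 1731, 2344 and 2614 CPM in Bcl6KO. The WT libraries were close together, and each Bcl6KO library was far above them. The log2 fold change was 1.64 (SE 0.21, edgeR quasi-likelihood, adjusted p = 0.0340), against 0.21 at stage 1. Ccnd2 spans chr6:127125162-127152193 on the minus strand. Of its exonic bases, 7.86% are shared with another annotated gene, whose reads cannot be told apart if counting ignored strand.

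Camk1d stood at 40.5, 57.4 and 70.1 CPM in WT and 505, 459 and 279 CPM in Bcl6KO, a log2 fold change of 2.89 (SE 0.39, edgeR quasi-likelihood, adjusted p = 0.0340). Its values varied within both groups but did not come near each other between them. At stage 1 the log2 fold change was 0.69. The gene spans chr2:5293457-5714515 on the minus strand.

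Igfbp4 had narrow groups, at 19.6, 18.4 and 22.9 CPM in WT and 246, 248 and 276 CPM in Bcl6KO. Its log2 fold change of 3.66 (SE 0.52, edgeR quasi-likelihood, adjusted p = 0.0409) was the largest of the 3. It was also positive at stage 1, 2.14, without passing the test there. The gene spans chr11:99041244-99054392 on the plus strand.

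These 3 calls depended on the libraries and the model. Leaving out any one of WT replicates 1, 2 and 3 or Bcl6KO replicates 2 and 3 gave 0 calls, while leaving out Bcl6KO replicate 1 gave 133 (61 higher and 72 lower), with the 3 genes among them. DESeq2 on the same counts called 950 genes, 357 higher and 593 lower, again with all 3. With the number of genes detected as a covariate edgeR called 0 genes, as it did on the 6 stage 0 libraries alone. Limma voom with quality weights also called 0. With Sp100 taken out of the library totals edgeR called the same 3.

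**Figure D2:**
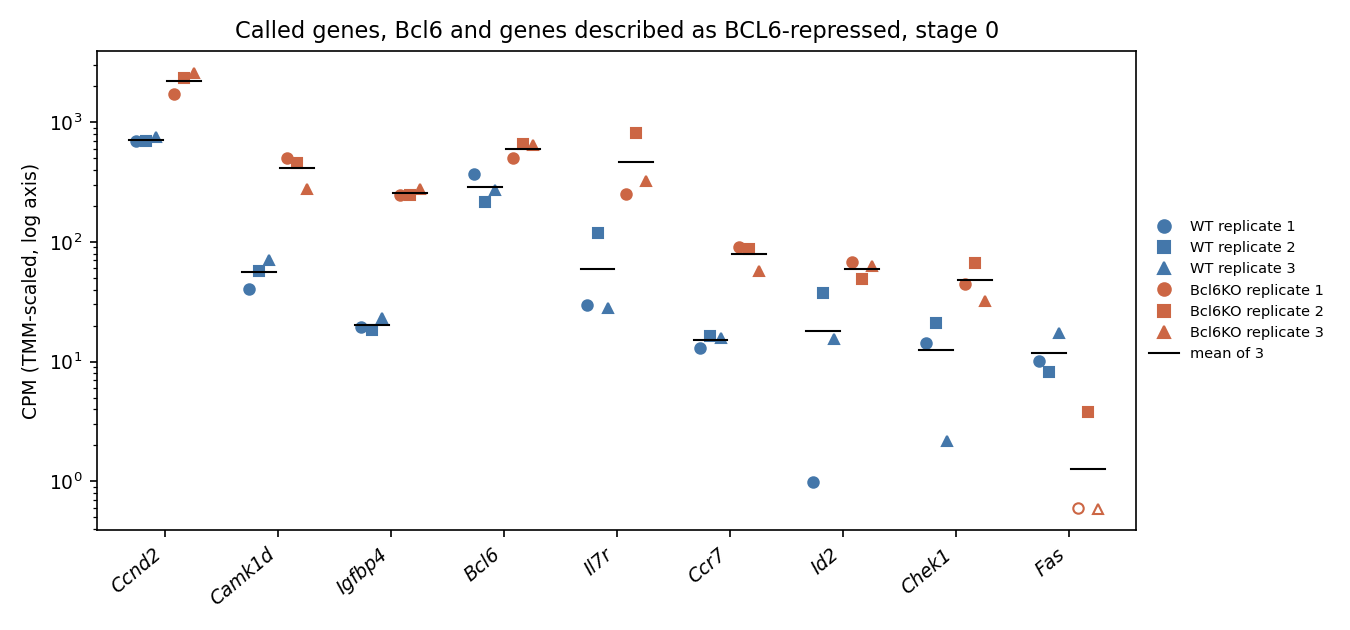
CPM on a log axis of the 3 called genes, Bcl6 and 5 genes described as BCL6-repressed whose groups did not overlap, in each stage 0 library. Symbols are replicates, lines the mean of 3, and open symbols mark values under 3 counts, drawn at that floor; Fas is the only one of the 9 with lower Bcl6KO values.

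Because so few genes passed, gene lists are described by their members' direction, by how many had all 3 Bcl6KO libraries above or below all 3 WT libraries, and by the median log2 fold change. Over all 15704 genes, 7782 fold changes were positive and the median was -0.01. Of all genes, 4.67% had the Bcl6KO libraries all above WT and 7.95% all below. Of the tested genes, 594 had no count in any Bcl6KO library and 47 none in any WT library. In bulk samples such as these, fewer cells of a type and less RNA per cell cannot be told apart. No list is tested here. Of the lists described below, those of mitosis, DNA replication, histones, D cyclins with their kinases and inhibitors, the T cell receptor complex and mitochondrial ribosomal proteins kept the sign of their median in all 18 alternatives; the medians of the others changed sign or reached 0 in at least 1.

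Genes of mitosis were placed higher in the Bcl6KO libraries almost throughout. Of 46 tested genes, 43 had a positive fold change, 18 (39.1%) had all Bcl6KO libraries above WT and 0 below, and the median log2 fold change was 1.74. None passed the test on its own. Summed over the list, the level was 2535, 2151 and 2452 CPM in WT and 5095, 6856 and 6638 CPM in Bcl6KO and the groups did not overlap. The 3 genes with a negative value were Ttk, Ect2 and Cks2. The list's median ran from 1.30 to 1.89 in the alternative fits and was 1.66 with genes detected as a covariate. Without Bcl6KO replicate 2, the library with the largest Sp100 share, 24 of the 46 did not overlap, against 10.4% of all genes. Without WT replicate 2 the numbers were 26 of 46 and 7.73%.

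Top2a, the topoisomerase that untangles sister chromatids, had the lowest p of the list. It stood at 56, 134 and 83 CPM in WT and 456, 331 and 459 CPM in Bcl6KO, a log2 fold change of 2.19 (SE 0.35, edgeR quasi-likelihood, adjusted p = 0.0938). It passed the test in 4 of 17 alternatives: among genes counted in all 6 stage 0 libraries, without a filter on low counts, with DESeq2 and without Bcl6KO replicate 1. Mki67, which encodes the proliferation marker Ki-67 that coats mitotic chromosomes, stood at 439, 345 and 336 CPM in WT and 1484, 2239 and 1785 CPM in Bcl6KO. Its groups lay far apart, with a log2 fold change of 2.30 (SE 0.40) and an adjusted p of 0.10 in edgeR. Kif11, the motor that pushes spindle poles apart, stood at 60.1, 69.2 and 67.6 CPM in WT and 149, 212 and 371 CPM in Bcl6KO. All 3 genes were thus above WT in each Bcl6KO library.

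Further members of the list act at the kinetochore and the spindle. Cenpe, a kinetochore motor, stood at 7.12, 34.3 and 28 CPM in WT and 151, 57 and 168 CPM in Bcl6KO. Cdca8, the passenger protein borealin, stood at 16, 13.1 and 7.25 CPM in WT and 29.8, 107 and 174 CPM in Bcl6KO, with a wide spread in Bcl6KO. In both genes each Bcl6KO library was above WT, whereas the kinetochore kinase gene Ttk stood at 4.94, 22.5 and 3.92 CPM in WT and 6.56, 1.13 and 3.53 CPM in Bcl6KO and overlapped. The microtubule proteins Nusap1 and Tpx2 bind the spindle. Nusap1 stood at 27.5, 10.8 and 8.22 CPM in WT and 115, 38.7 and 133 CPM in Bcl6KO. Tpx2 stood at 41.1, 39 and 16.6 CPM in WT and 62.4, 275 and 88 CPM in Bcl6KO. Cdk1, the kinase that drives entry into mitosis, stood at 10.1, 12.9 and 9.20 CPM in WT and 12.1, 64.5 and 145 CPM in Bcl6KO. Bcl6KO replicate 1 overlapped WT for Cdk1 and was the lowest Bcl6KO library for Cdca8, Tpx2 and Kif11.

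Many promoters of mitosis genes carry CCAAT boxes, bound by NF-Y, and the cell cycle homology region TTTGAA, bound by the DREAM and B-MYB complexes. Both are visible in the promoters of the 3 leading genes, shown because the results turn on this list. The 250 bases before the RefSeq start site are given 5′ to 3′ on the gene's strand (GRCm38.p6), with TTTGAA and CCAAT on either strand (TTCAAA and ATTGG on the other) in capitals. The windows lie at chr11:99024190-99024439 on the minus strand, chr7:135716380-135716629 on the minus strand and chr19:37376132-37376381 on the plus strand.
Top2a: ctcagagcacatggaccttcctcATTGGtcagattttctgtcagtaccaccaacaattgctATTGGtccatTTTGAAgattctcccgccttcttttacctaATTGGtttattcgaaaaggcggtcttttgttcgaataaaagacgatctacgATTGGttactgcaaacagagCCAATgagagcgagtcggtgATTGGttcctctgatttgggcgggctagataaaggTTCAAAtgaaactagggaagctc
Mki67: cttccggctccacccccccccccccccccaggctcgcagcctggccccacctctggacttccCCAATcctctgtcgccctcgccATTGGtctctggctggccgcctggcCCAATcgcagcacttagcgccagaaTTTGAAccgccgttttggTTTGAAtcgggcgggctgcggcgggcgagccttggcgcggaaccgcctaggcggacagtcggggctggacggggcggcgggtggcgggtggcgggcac
Kif11: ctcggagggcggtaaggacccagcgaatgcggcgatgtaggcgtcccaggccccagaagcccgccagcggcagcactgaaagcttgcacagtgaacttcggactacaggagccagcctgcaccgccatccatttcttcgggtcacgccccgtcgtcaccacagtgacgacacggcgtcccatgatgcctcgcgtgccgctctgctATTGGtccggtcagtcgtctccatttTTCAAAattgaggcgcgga
Top2a holds 2 TTTGAA and 6 CCAAT matches in this window, Mki67 2 and 3, and Kif11 1 of each. In windows of 300 bases (250 before to 50 after the start), 28 of the 38 mitosis genes with an entry held TTTGAA, against 14.9% of the 9970 tested genes with an entry. CCAAT was found in 30 of the 38, against 42.7% of tested genes. Of 40 DNA replication genes with an entry, 6 held TTTGAA and 25 CCAAT. The motifs were searched separately, also where they share an end base. A match is a description of the letters and not of binding.

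Genes of DNA replication differed less. Of 48 tested genes, 38 had a positive fold change, and the median was 0.55. In 8 (16.7%) every Bcl6KO library lay above WT and in 1 (2.08%) below, against 4.67% and 7.95% of all genes. Without Bcl6KO replicate 2, 14 (29.2%) lay above WT, against 10.4% of all genes. Without WT replicate 2 the numbers were 12 (25%) and 7.73%. The summed level was 2424, 2168 and 2015 CPM in WT and 3392, 2832 and 4526 CPM in Bcl6KO. These sums did not overlap, though Bcl6KO replicate 2 came close to WT replicate 1. Lig1, the ligase that seals Okazaki fragments, led the list at 49.4, 26.6 and 48.4 CPM in WT and 147, 219 and 226 CPM in Bcl6KO, with a log2 fold change of 2.25 (SE 0.44, edgeR quasi-likelihood, adjusted p = 0.10). Mcm4, a subunit of the replicative helicase, stood at 70.6, 71.7 and 90.3 CPM in WT and 160.1, 131 and 178 CPM in Bcl6KO. Rrm1, the large subunit of ribonucleotide reductase, stood at 122, 73.5 and 44.8 CPM in WT and 150.2, 136 and 318 CPM in Bcl6KO. In these 3 genes each Bcl6KO library was above WT. Pcna, the sliding clamp, overlapped between groups, with 267, 198 and 169 CPM in WT and 349.8, 159 and 541 CPM in Bcl6KO. Orc1, the origin recognition subunit, was the member with lower values in each Bcl6KO library, 4.57, 1.70 and 0.980 CPM against 10.9, 8.62 and 12.3 CPM.

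Messages of the replication-dependent histones, which are made in S phase and mostly lack a poly(A) tail, had the highest median of the cell division lists, 1.80. Of 57 tested genes, 54 had a positive fold change. In 40 (70.2%) every Bcl6KO library lay above WT and in 0 below, against 4.67% and 7.95% of all genes. The sum over all 62 genes of the list was 545, 913 and 594 CPM in WT and 1699, 6379 and 3341 CPM in Bcl6KO. Bcl6KO replicate 2 held the most by far, and without it 46 of 57 did not overlap, against 10.4% of all genes. Many of these genes are near-identical copies, so they are not 57 separate measurements. Counts of 31 of them matched those of another copy within 25% or 5 counts in every stage 0 library, which leaves 34 distinct patterns, of which 19 did not overlap. For example Hist1h2ao stood at 6.33, 12.7 and 8.03 CPM in WT and 28.6, 447 and 143 CPM in Bcl6KO. Its copy Hist1h2ap stood at 6.33, 12.7 and 8.03 CPM in WT and 28.6, 447 and 133 CPM in Bcl6KO. Reads of such copies may not be assignable to one of them. Hist1h2bf, with no exonic base shared, stood at 10.1, 30.2 and 16.3 CPM in WT and 79.3, 104 and 87.6 CPM in Bcl6KO. The linker histone gene Hist1h1b stood at 0.593, 7.05 and 0.783 CPM in WT and 17.7, 43.6 and 23.9 CPM in Bcl6KO. All 3 Bcl6KO libraries were above WT for both, while the other 4 tested linker histone genes of that cluster overlapped between groups. The share of counts on a set of ribosomal RNA-like genes was 2.27%, 1.98% and 2.03% in WT. It was 2.28%, 2.51% and 3.38% in Bcl6KO, without overlap by a small margin. That set also holds the protein-coding gene Lars2, so it does not measure only RNAs without tails. Of other RNAs without poly(A) tails, Rmrp stood at 0, 0.588 and 0.392 CPM in WT and 3.97, 2.64 and 2.16 CPM in Bcl6KO. Rpph1 stood at 2.18, 2.74 and 1.37 CPM in WT and 0.993, 1.13 and 0.392 CPM in Bcl6KO, in the opposite direction. Among the Bcl6KO libraries the histone sums had the order of the Sp100 share, and among WT the reverse order. The part of these measures in the histone values was not tested.

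**Figure D3:**
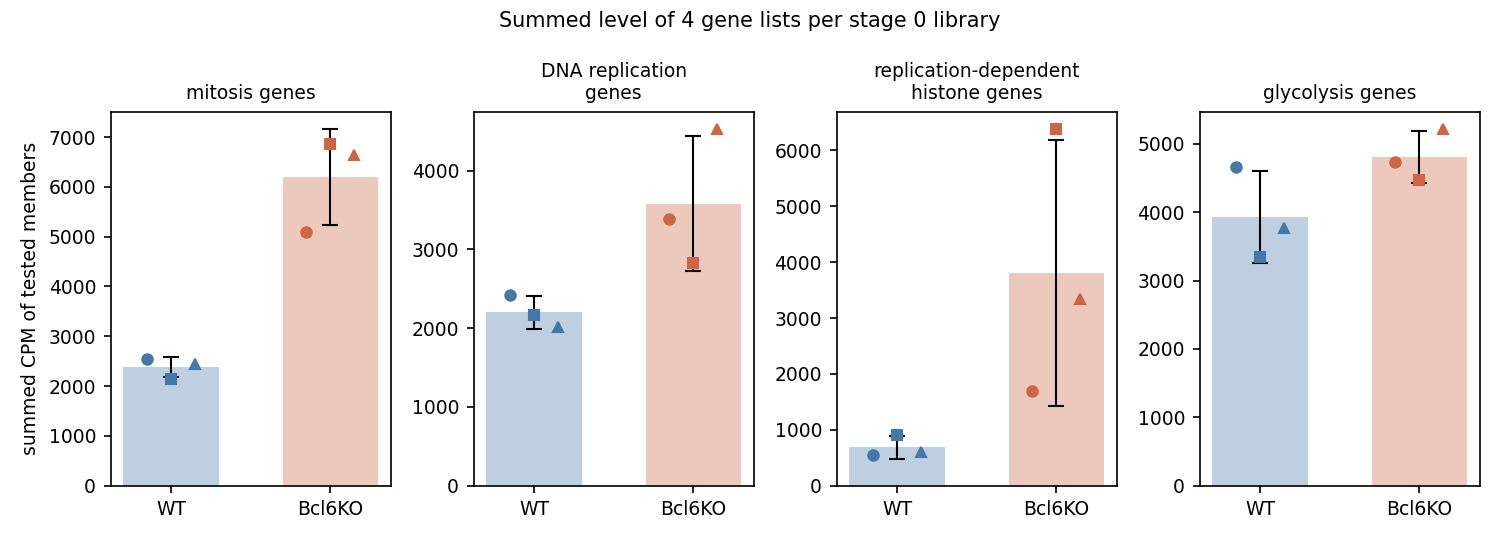
Summed CPM of all members of 4 lists in each stage 0 library, with untested members included although the axis names tested ones. Bars are means, error bars the SD and symbols the replicates. Mitosis, DNA replication and histone sums lie higher in each Bcl6KO library than in each WT library, while the glycolysis sums overlap.

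Among 20 D cyclins, cyclin-dependent kinases, inhibitors and pocket proteins, 13 had a positive fold change. In 3 (15%) the Bcl6KO libraries lay above WT throughout, against 4.67% of all genes: Ccnd2, Cdk6 and E2f2. Cdk6, a kinase partner of cyclin D2, stood at 278, 251 and 305 CPM in WT and 597, 343 and 582 CPM in Bcl6KO. E2f2, an E2F factor of G1 to S entry, stood at 32.6, 125 and 7.83 CPM in WT and 249, 214 and 199 CPM in Bcl6KO, with a wide spread in WT. The kinase inhibitor gene Cdkn1b stood at 25.5, 94.2 and 108 CPM in WT and 62.4, 28.5 and 28 CPM in Bcl6KO. The pocket protein gene Rbl2 stood at 431, 254 and 136 CPM in WT and 173, 102 and 178 CPM in Bcl6KO. Both overlapped between groups.

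At stage 1, the same cell division lists had smaller positive medians: 0.75 for mitosis (44 of 46 positive), 0.36 for DNA replication (37 of 48) and 1.11 for histones (56 of 57). No gene (0%) passed the test of genotype at stage 1, with 404 at an unadjusted p below 0.05 by edgeR and a median log2 fold change of 0.02 over all genes. Whether the genotype difference itself differed between the stages was tested directly and 0 genes (0%) passed (edgeR, lowest adjusted p = 0.483), with 1221 at an unadjusted p below 0.05. DESeq2 called 130 genes for that difference. It was not shown that any gene named here responded differently at stage 0 than at stage 1.

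**Figure D4:**
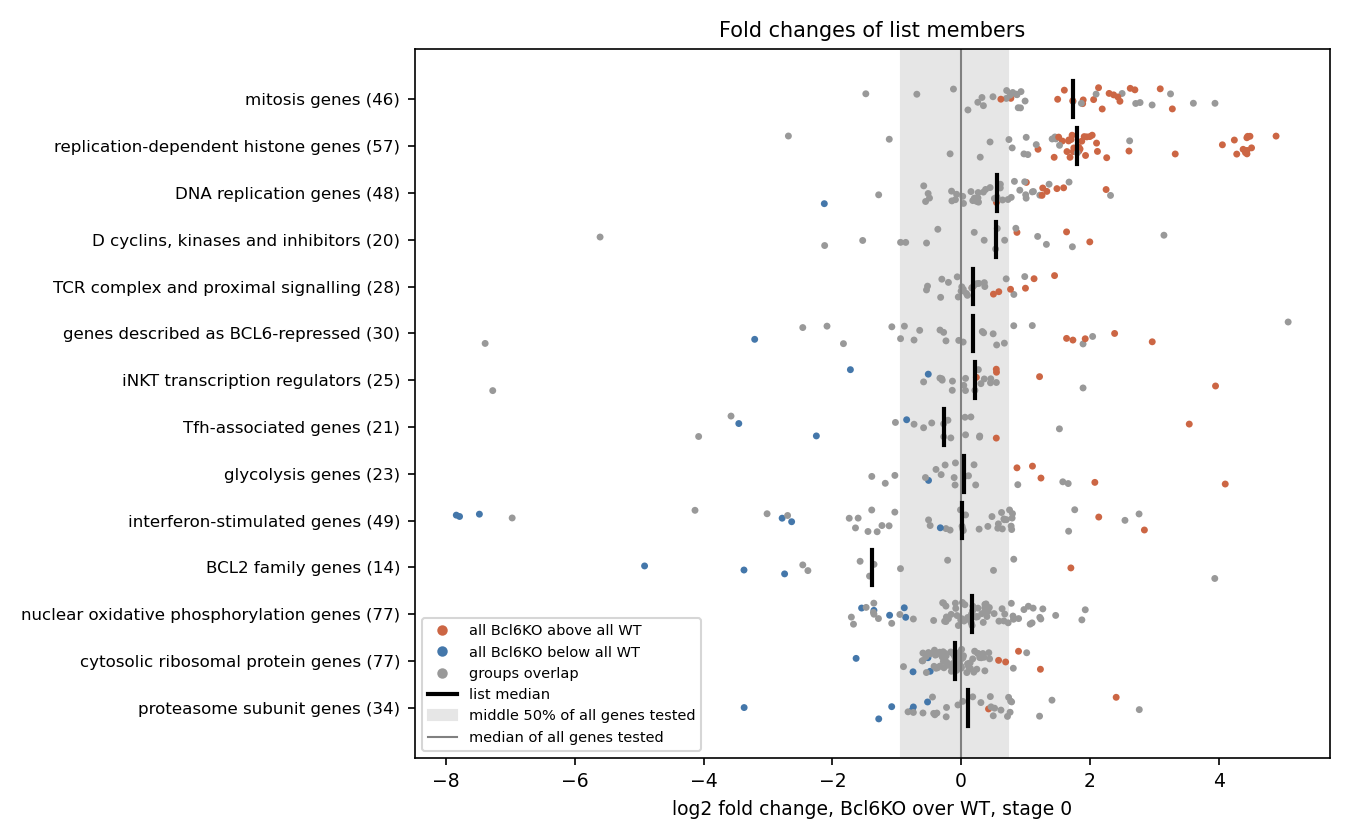
Log2 fold change (Bcl6KO over WT, stage 0) of each tested member of 14 lists, with the number of members in parentheses. Black bars are list medians, orange and blue points members whose groups did not overlap, and the grey band the middle 50% of all genes tested; the medians of mitosis and histone genes lie to the right of the band, and those of ribosomal, oxidative phosphorylation and proteasome genes within it.

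Genes described as BCL6-repressed in B or Tfh cells had a median of 0.18 over 30 tested members, 16 of them positive. In 5 (16.7%) the Bcl6KO libraries were all above WT and in 1 (3.33%) all below, against 4.67% and 7.95% of all genes. The 5 were Ccnd2, Il7r, Ccr7, Chek1 and Id2, and the 1 was Fas. Il7r, the interleukin-7 receptor chain, stood at 29.9, 119.5 and 28.2 CPM in WT and 253, 814 and 323 CPM in Bcl6KO, a log2 fold change of 2.97 (SE 0.56, edgeR quasi-likelihood, adjusted p = 0.10). At stage 1 its log2 fold change was -0.12. Ccr7, the chemokine receptor that leads thymocytes to the medulla, stood at 13.1, 16.5 and 15.7 CPM in WT and 91.4, 87.7 and 57 CPM in Bcl6KO. Its WT values were within a narrow range, far under each Bcl6KO library.

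Id2, an inhibitor of E proteins, stood at 0.989, 37.4 and 15.5 CPM in WT and 68.1, 48.9 and 62.7 CPM in Bcl6KO. Chek1, the checkpoint kinase of replication stress, stood at 14.2, 21.2 and 2.15 CPM in WT and 44.5, 66.6 and 31.9 CPM in Bcl6KO. WT replicate 1 was far below the others for Id2, as was WT replicate 3 for Chek1. Klf2, the regulator of thymic egress, varied widely among the Bcl6KO libraries, with 0, 1.37 and 1.76 CPM in WT and 94.2, 0 and 14.3 CPM in Bcl6KO. Bcl2, the survival factor, stood at 659.8, 302 and 943 CPM in WT and 773, 939 and 1645 CPM in Bcl6KO and overlapped. Fas, the death receptor, stood at 10.1, 8.23 and 17.2 CPM in WT and 0, 3.77 and 0 CPM in Bcl6KO. Prdm1, Cdkn1a and Cdkn2a, textbook targets of BCL6, did not pass the filter on low counts.

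BCL6 binds a core close to TTCCNNGAA, which it shares with STAT factors. A downstream RefSeq start of Bcl6 itself, in the window chr16:23981284-23981533 on the minus strand (GRCm38.p6), holds 2 such matches in the 250 bases before it, and is shown because Bcl6 message lay above WT in each Bcl6KO library; capitals mark TTCCNNGAA or TTCNNGGAA.
Bcl6: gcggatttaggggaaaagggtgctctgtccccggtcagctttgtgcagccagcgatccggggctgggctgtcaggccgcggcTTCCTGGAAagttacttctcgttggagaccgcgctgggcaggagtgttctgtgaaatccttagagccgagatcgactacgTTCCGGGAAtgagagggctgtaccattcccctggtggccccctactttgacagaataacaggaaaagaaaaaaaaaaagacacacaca
The other Bcl6 start and the windows of Igfbp4 and Camk1d hold no match in their 250 bases, and Ccnd2 has no entry. Over 300-base windows, TTCCNNGAA in either orientation was found in 2 of 22 genes of the BCL6-repressed list, Il7r and Fas, in 0 of 38 mitosis genes and in 5.43% of tested genes. Binding was not measured here, and the part of these matches in the Bcl6 level was not tested.

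Zbtb16 and Zbtb7b, regulators of the iNKT and the CD4 lineage, were placed on opposite sides. Zbtb16, the PLZF gene at chr9:48654297-48836222, stood at 192, 209 and 96.3 CPM in WT and 94.2, 8.68 and 48 CPM in Bcl6KO. Bcl6KO replicate 1 lay just below the lowest WT library and replicate 2 far below it, for a log2 fold change of -1.72 (SE 0.59, edgeR quasi-likelihood, adjusted p = 0.226). Zbtb7b, which encodes ThPOK, the regulator of CD4 commitment, stood at 9.89, 5.88 and 2.15 CPM in WT and 88.8, 128 and 60.9 CPM in Bcl6KO. The groups lay far apart, with a log2 fold change of 3.95 (SE 0.70, edgeR quasi-likelihood, adjusted p = 0.10). Cd4, the coreceptor gene, stood at 216, 298 and 145 CPM in WT and 666, 519 and 617 CPM in Bcl6KO, again without overlap.

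Over the list of 25 iNKT regulators the median was 0.21, with 5 members (20%) above WT throughout and 2 (8%) below. Over all genes the shares were 4.67% and 7.95%. The 5 were Zbtb7b, Ezh2, Tcf7, Ikzf1 and Satb1, and the 2 were Zbtb16 and Myb. Ezh2, the methyltransferase of histone H3 lysine 27 that limits iNKT cell numbers, stood at 68.2, 111 and 168 CPM in WT and 243, 298 and 268 CPM in Bcl6KO. Tcf7, which encodes TCF-1, stood at 517, 485 and 414 CPM in WT and 706, 639 and 722 CPM in Bcl6KO. Myb, which keeps double-positive thymocytes alive for distal Valpha rearrangement, stood at 1099, 949 and 1166 CPM in WT and 937, 728 and 592 CPM in Bcl6KO. The Myb groups were separated by a gap smaller than the spread within either.

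Tfh-associated genes, of which BCL6 is the lineage regulator, had a median of -0.27 over 21 tested members, 8 of them positive. Il4, the cytokine of Tfh and NKT2 cells, stood at 31.2, 12.9 and 6.07 CPM in WT and 3.58, 0.566 and 0.392 CPM in Bcl6KO. Sh2d1a, which encodes SAP, the adaptor that SLAM receptors use in iNKT selection, stood at 111, 108 and 65.4 CPM in WT and 13.3, 11.3 and 35.1 CPM in Bcl6KO. Its receptor Slamf6 stood at 949, 649 and 1015 CPM in WT and 519, 610.3 and 324 CPM in Bcl6KO. In all 3 the Bcl6KO libraries were below WT, with adjusted p of 0.157, 0.166 and 0.205 by edgeR. Il21, another Tfh cytokine, stood at 0, 7.05 and 14.9 CPM in WT and 80.5, 93 and 83.1 CPM in Bcl6KO, with each Bcl6KO library above WT. Maf, a regulator of Il4 and Il21, was high in WT replicate 2 alone, at 1.98, 95.2 and 8.22 CPM in WT and 1.19, 3.21 and 1.76 CPM in Bcl6KO.

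**Figure D5:**
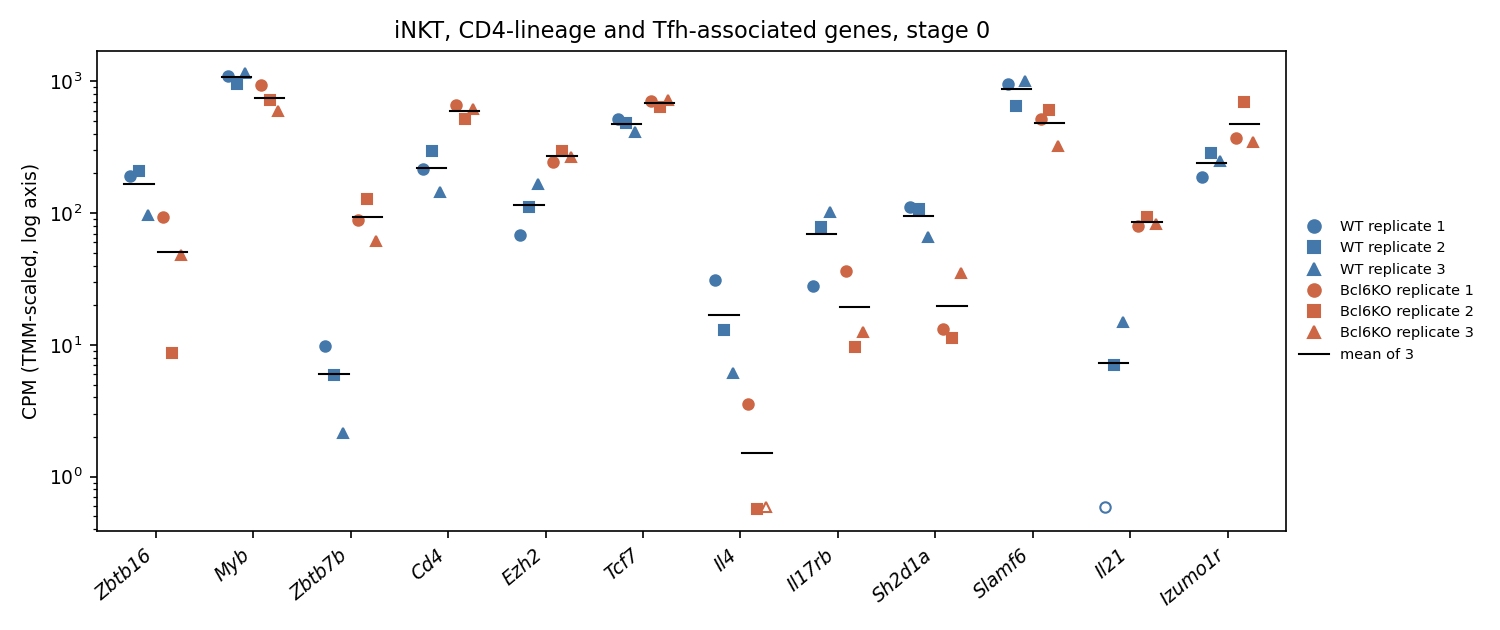
CPM on a log axis of 12 genes of the iNKT and CD4 lineages and of the Tfh and NKT2 programs in each stage 0 library; symbols are replicates, lines the mean of 3, and open symbols mark values under 3 counts, drawn at that floor. Zbtb7b, Cd4 and Il21 lie above WT in each Bcl6KO library, and Zbtb16, Il4, Sh2d1a and Slamf6 below; the groups overlap for Il17rb.

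The iNKT effector lists rested on few or low messages. The NKT2 list had 15 tested genes and a median of -0.60 (-0.67 to 0.17 over the alternatives). In it 3 genes (20%) lay above WT throughout (Izumo1r, Ccr7, Cd4) and 2 (13.3%) below (Il4, Slamf6). Over all genes the shares were 4.67% and 7.95%. Izumo1r, the folate receptor FR4, stood at 188, 287 and 248 CPM in WT and 375, 702 and 347 CPM in Bcl6KO. Il17rb, the receptor of interleukin-25 that marks NKT2 cells, stood at 28.1, 78.2 and 102 CPM in WT and 36.4, 9.62 and 12.5 CPM in Bcl6KO and overlapped. The NKT1 median was -1.87 over 15 genes and -1.31 with genes at 0 in a whole group set to their bound against 3 counts. It ran from -5.83 to 0.87 over the alternatives, with 0.87 when genes detected was a covariate and 0 without WT replicate 2. The NKT1 sums over all 20 members, 211, 362 and 137 CPM in WT and 259, 581 and 127 CPM in Bcl6KO, overlapped. For 9 NKT17 genes the median was -0.61 and no member was without overlap; the median was 1.75 with genes detected as a covariate and 1.87 without WT replicate 2. These 3 lists therefore had no direction that held over the alternatives.

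Genes of the T cell receptor complex and its proximal signalling had a median of 0.18 over 28 members. In 7 (25%) the Bcl6KO libraries were all above WT and in 0 below, against 4.67% and 7.95% of all genes. The 7 were Lat, Cd4, Cblb, Cd5, Cd3e, Ptprc and Trac. Lat, the membrane scaffold of the receptor signal, stood at 255, 288 and 188 CPM in WT and 347, 702 and 553 CPM in Bcl6KO. Cd5, whose level follows the strength of the selecting signal, stood at 176, 169.8 and 138 CPM in WT and 252, 341 and 376 CPM in Bcl6KO. Cd3e, a signalling chain of the receptor, stood at 1161, 998 and 1198 CPM in WT and 1915, 1236 and 1884 CPM in Bcl6KO. For Cd3e and Trac the lowest Bcl6KO library was only slightly above the highest WT library. The 29 TCR-induced genes had a median of -0.05, with 14 positive.

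Stim2, the calcium sensor of the endoplasmic reticulum, stood at 18.4, 23.3 and 27.8 CPM in WT and 35.6, 190.3 and 80.5 CPM in Bcl6KO. Nras, a Ras protein, stood at 326, 326 and 246 CPM in WT and 239.8, 90.4 and 63.7 CPM in Bcl6KO, below WT in each Bcl6KO library by a small margin in replicate 1. Rasgrp1, the exchange factor that activates Ras in thymocytes, stood at 1456, 979 and 1553 CPM in WT and 1029, 599 and 868 CPM in Bcl6KO and overlapped. The 40 genes of Ras, diacylglycerol and calcium signalling had 2 members (5%) above WT throughout and 4 (10%) below, with a median of 0.13. Over all genes the shares were 4.67% and 7.95%, close to these. Of 22 genes for NF-kB subunits and their regulators, 0 lay above WT throughout. In 2 (9.09%), the kinase gene Ikbkb and the adaptor gene Traf1, values lay below WT, also close to the 7.95% of all genes. Traf1 stood at 8.11, 29.6 and 1.96 CPM in WT and 0.993, 0.566 and 1.37 CPM in Bcl6KO.

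Smad3, which carries signals of TGF-beta, was among the more separated signalling genes, at 53, 63.7 and 43.9 CPM in WT and 151, 351 and 150.3 CPM in Bcl6KO. Its log2 fold change was 2.02 (SE 0.37, edgeR quasi-likelihood, adjusted p = 0.10), against 0.24 at stage 1. The ligand gene Tgfb1 stood at 38, 44.7 and 95 CPM in WT and 82.4, 341 and 251 CPM in Bcl6KO and overlapped. The receptor gene Notch1 stood at 26.1, 88.2 and 126 CPM in WT and 123, 365 and 409 CPM in Bcl6KO, with a narrow overlap. The TGF-beta and Notch list had 26 tested genes and a median of 0.45, but its median ran from -0.26 to 0.62 over the alternatives. Members without overlap were Smad3, Smad4 and Tgfbr3 above WT (11.5%), and Tgfbr1 and the Notch target Hes1 below (7.69%). Over all genes the shares were 4.67% and 7.95%.

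Ccr9, which keeps thymocytes responsive to CCL25, stood at 520.1, 569.7 and 482 CPM in WT and 941, 1555 and 1551 CPM in Bcl6KO. Ccr10 and Ccr8 had no count in any Bcl6KO library. In WT, Ccr10 stood at 2.57, 6.27 and 5.09 CPM, which makes Bcl6KO at least 7.96-fold lower against 3 counts per library, and Ccr8 at 4.75, 4.90 and 3.52 CPM, at least 7.53-fold lower. Cxcr6, the receptor of mature iNKT cells, stood at 6.72, 40.2 and 4.31 CPM in WT and 0, 0 and 3.92 CPM in Bcl6KO. Ccr4 stood at 433, 394 and 209.7 CPM in WT and 393, 748 and 1219 CPM in Bcl6KO, and Bcl6KO replicate 1 overlapped WT. Of the 39 genes of chemokine receptors, integrins and egress, 4 (10.3%) lay above WT throughout and 5 (12.8%) below. Over all genes the shares were 4.67% and 7.95%.

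Glycolysis as a whole had a median of 0.05 over 23 genes. In 5 (21.7%) the Bcl6KO libraries were all above WT and in 1 (4.35%) all below, against 4.67% and 7.95% of all genes. The 5 were Pgk1, Ldha, Slc16a1, Eno1 and Eno2. Pgk1, an ATP-producing step of glycolysis, stood at 119, 109 and 102 CPM in WT and 235, 282 and 263 CPM in Bcl6KO, a log2 fold change of 1.24 (SE 0.27, edgeR quasi-likelihood, adjusted p = 0.102). Ldha, which turns pyruvate into lactate, stood at 473, 361 and 269 CPM in WT and 772, 559 and 680.4 CPM in Bcl6KO. The lactate carrier gene Slc16a1 stood at 13.4, 45.3 and 21.3 CPM in WT and 147, 118 and 72.5 CPM in Bcl6KO. The summed glycolysis level overlapped between groups. Lipid synthesis genes had members on either side, with 5 of 24 (20.8%) above WT throughout and 3 (12.5%) below. The desaturase gene Scd2 stood at 239, 342 and 183 CPM in WT and 525, 653 and 902 CPM in Bcl6KO, above WT throughout. The fatty acid synthase gene Fasn stood at 211, 191 and 114 CPM in WT and 95.4, 76.4 and 69.7 CPM in Bcl6KO, below WT throughout.

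Chromatin regulators without overlap included writers and erasers of DNA methylation. Dnmt1, the maintenance methyltransferase that acts behind the replication fork, stood at 138, 118 and 123 CPM in WT and 204, 402 and 228 CPM in Bcl6KO. Tet3, which oxidises methylcytosine, stood at 287, 274 and 352 CPM in WT and 362, 1193 and 864 CPM in Bcl6KO, and Bcl6KO replicate 1 was only slightly above the highest WT library. Nsd2, a methyltransferase of histone H3 lysine 36, stood at 73.4, 147 and 99.7 CPM in WT and 210.2, 174 and 323 CPM in Bcl6KO. Kmt2c, a methyltransferase of enhancer histone H3 lysine 4, stood at 795, 522 and 691 CPM in WT and 429, 487 and 433 CPM in Bcl6KO and was below WT throughout. The list of 47 enzymes had 6 members (12.8%) above and 5 (10.6%) below, with a median of 0.11. Over all genes the shares were 4.67% and 7.95%. The histone deacetylase genes Hdac2 and Hdac3 also lay below WT throughout.

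Genes of the unfolded protein response, of survival and of interferon responses had no common direction. Atf6, a sensor of unfolded proteins, stood at 124, 98.7 and 158 CPM in WT and 327, 327 and 596 CPM in Bcl6KO. Xbp1, another factor of that response, stood at 5.74, 30.4 and 1.37 CPM in WT and 42.3, 52.1 and 165 CPM in Bcl6KO. Both lay above WT throughout. Bcl2l11, which encodes the death inducer BIM, stood at 53.6, 124 and 40.5 CPM in WT and 222, 181 and 309 CPM in Bcl6KO. Bid, another death inducer of the BCL2 family, stood at 39.8, 24.9 and 29.6 CPM in WT and 9.14, 0 and 4.90 CPM in Bcl6KO, below WT throughout. Of the 14 BCL2 family genes, 10 had a negative fold change. Their median was -1.39, with a range of -2.19 to 0.48 over the alternatives. In 1 (7.14%) the Bcl6KO libraries were all above WT and in 3 (21.4%) all below, against 4.67% and 7.95% of all genes. Of 49 interferon-stimulated genes, 2 (4.08%) lay above WT and 6 (12.2%) below, with a median of 0.01. Over all genes the shares were 4.67% and 7.95%. The 2 above were Sp100 and Sp140, and the fold change of Sp100 turned negative with genes detected as a covariate. Ifi27 stood at 101, 52.9 and 24.9 CPM in WT and 13.5, 7.55 and 4.90 CPM in Bcl6KO. Oasl1 stood at 6.53, 2.55 and 50.5 CPM in WT and 0.199, 0 and 0 CPM in Bcl6KO, where WT replicate 3 was far above the other WT libraries.

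Housekeeping lists lay near 0. The medians were -0.09 for 77 cytosolic ribosomal protein genes, 0.18 for 77 nuclear oxidative phosphorylation genes, 0.10 for 34 proteasome genes and -0.26 for 77 mitochondrial ribosomal protein genes. Of the cytosolic ribosomal genes, 4 (5.19%) lay above WT throughout and 4 (5.19%) below, and of the mitochondrial ribosomal genes 3 (3.90%) and 5 (6.49%). For oxidative phosphorylation the numbers were 0 and 5 (6.49%), and for the proteasome 2 (5.88%) and 6 (17.6%). The shares of all genes were 4.67% and 7.95%. Some of these members are given next. Rpl34, a protein of the large ribosomal subunit, stood at 123, 124 and 117 CPM in WT and 45.3, 22.1 and 50.4 CPM in Bcl6KO. Mrps26, of the small mitochondrial subunit, stood at 71, 28.8 and 62.5 CPM in WT and 5.36, 0.566 and 2.74 CPM in Bcl6KO. Psmd5, a chaperone of proteasome assembly, stood at 13.4, 30.6 and 39.2 CPM in WT and 1.99, 2.08 and 3.92 CPM in Bcl6KO. Rpl34, Mrps26 and Psmd5 were thus below WT in each Bcl6KO library. The subunit gene Psmd7 stood at 23.3, 31.3 and 47.2 CPM in WT and 74.7, 349 and 117 CPM in Bcl6KO, above WT throughout.

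Some of the named genes share exonic bases with another annotated gene: Sh2d1a (26.6%), Ccr9 (21.5%), Rbl2 (21%), Bid (17.7%), Orc1 (10.8%), Notch1 (9.76%), Il21 (8.92%), Trdc (7.84%), Myb (6.26%), Bcl2 (6.09%), Lig1 (5.79%) and Maf (5.34%). Their counts may hold reads of the neighbour, and how many was not tested.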

How the data were processed

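The authors deposited raw counts per gene, 1 table per library, for 48672 Ensembl gene IDs. The submitters' processing notes name TopHat2, Bowtie2, bcl2fastq and DESeq and the build mm10. Which program counted the reads, with which annotation and strand setting, is not given in the sources used here. Per the labels' protocols, RNA came from sorted, frozen cells through a QIAGEN kit, and libraries were made with the NuGEN Ovation Ultralow system. No mitochondrial gene held a count. Symbols and coordinates came from GENCODE M21 on the same build (48312 IDs matched), and promoter windows from RefSeq.

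Counts were tested with edgeR 4.0.16 (R 4.3.3): TMM scaling, filterByExpr by group (15704 genes), robust quasi-likelihood fit of all 12 libraries with 1 mean per group (8 residual degrees of freedom), two-sided F-test, Benjamini-Hochberg adjustment at 0.05 over all genes tested. The common biological coefficient of variation was 0.835. Standard errors are the log2 fold change over the square root of F. Levels are CPM on the TMM-scaled library size. A count of 0 allows 3 counts (0.566 to 0.596 CPM per stage 0 library), for counting error only, as no molecular identifiers were used. No pair of libraries of a group agreed within sampling noise. DESeq2 1.42.0 and limma 3.58.1 served as alternatives.

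The members and gene lists were chosen with earlier results of these data known. Named genes were Bcl6, Zbtb16, Cd24a, Cd44, all called genes, the 2 members of each list with the lowest p, the member with the highest mean CPM, and other list members given beside their list. Lists were not tested. The count of genes without overlap minus single libraries, and medians with groups at 0 set to their bound, were added after seeing the data. Chromatin accessibility was not analysed here, and some genes are not reported here.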

Additional observations from a re-analysis of the deposited data

How the results depend on the processing

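The number of genes called for genotype at stage 0, 3 in the report, was 950 with DESeq2, 0 with limma voom and quality weights (880 genes at an unadjusted p below 0.05), 103 without a filter on low counts, 5 among genes counted in all 6 stage 0 libraries (Top2a and Zfp609 added), 0 with the 6 stage 0 libraries alone (773 at an unadjusted p below 0.05) and 0 with the number of genes detected as a covariate (1471 at an unadjusted p below 0.05). Leaving out single libraries gave 0 to 133. It stayed 3, the same genes, with RLE size factors, with library totals without Sp100 and among genes of at least 5 CPM on average. With replicate number as a block 1 gene, Ccnd2, was called in 12 libraries and 0 in the 6 of stage 0. The numbers do not pair the libraries: deviations of same-numbered WT and Bcl6KO libraries correlated at 0.017, -0.039 and -0.016 across genes. The difference between the stages, 0 genes in the report, gave 130 with DESeq2, 7 without a filter, and 0 in all other fits run, including those leaving out 1 library.

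Ccnd2, Camk1d and Igfbp4 kept a positive fold change in all 17 alternatives. Signs changed for genes that had not passed the test. With genes detected as a covariate the log2 fold change was -0.29 for Bcl2, 1.26 for Cks2, 3.27 for Ect2, -0.038 for Ikzf1, 1.00 for Sox13, -1.81 for Sp100, -0.017 for Tgfb1 and 0.46 for Ttk, each opposite to the report. Ect2 was also positive with limma voom (0.15) and with the replicate block in 6 libraries (0.51). Leaving out single libraries moved Ect2 from -0.88 to 1.65 and Sox13 from -9.58 to 3.13. The cause was not tested.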
